A study of Mus musculus with 9 samples.

Results

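The comparison described here was between the hepatocyte layer that makes glutamine synthetase and the rest of the hepatic acinus in mouse liver, over all transcripts that the arrays could measure. The samples were captured by laser, a method that lifts chosen cells from a tissue section under the microscope. PV, with 3 arrays (1PV, 2PV and PV3), was the glutamine synthetase subcompartment, the sheath of cells around the central vein. NPV, with 3 arrays (1NPV, 2NPV and NPV3), was zones 1+2 of the acinus, on the portal side of that sheath. The labels do not say whether hepatocytes between these zones and the sheath were captured. SC, also with 3 arrays, was tissue scraped whole from the slide, and its levels are given only beside those of the captured regions. Its arrays enter no contrast, but they were normalized with the others and share the estimate of spread behind every p-value. No genotype, strain, sex, age or treatment is given in the sources used here, nor how the glutamine synthetase cells were recognised. All probes with a detection p-value under 0.05 on at least 3 of the 6 PV and NPV arrays were taken, which left 18200 of 45281 probes and 12747 genes. Arrays of the 2 groups were paired by the number in their labels. Since nothing in the labels ties an array to an animal, arrays may come from one animal, and a p-value here reflects only the spread among these arrays, part of which may be technical.

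Blood crosses the liver acinus from the portal tract to the central vein, and hepatocytes along that path divide their work. Periportal cells carry out gluconeogenesis, urea synthesis and the breakdown of amino acids, and pericentral cells carry out drug oxidation, bile acid synthesis and glutathione conjugation. The last cells before the central vein take up the ammonium that escaped urea synthesis and fix it as glutamine. Endothelial cells of the central vein secrete Wnt ligands and R-spondins, which keep beta-catenin active in these hepatocytes and are known to be needed for their gene expression programme.

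Between 16819 and 18402 probes were detected on each of the 6 arrays (37.1% to 40.6% of probes), and precision is limited by how few arrays there are. PV 3 and NPV 3 differed most from the other arrays. Their levels correlated across probes, which are not independent replicates, with those of the arrays numbered 1 and 2 by 0.945 to 0.952 (Pearson's r), where numbers 1 and 2 correlated by 0.979 to 0.986. All levels below are background-corrected intensities on the log2 scale, and a difference is PV minus NPV. A fold is a ratio of geometric means of these intensities, and the offset added in the background correction draws it towards 1 for dim probes. In tissue captured in bulk, fewer cells of a type and less RNA per cell cannot be told apart.

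Of the 18200 probes, 64 rose in PV (0.352%) and 1 fell (0.00549%) by limma with the replicate number as a block, at a Benjamini-Hochberg adjusted p under 0.05 over all probes. At an unadjusted p under 0.05, 833 probes were higher (4.58%) and 879 lower (4.83%). Quantile normalization gives every array the same distribution of values and so bears on this balance. With arrays scaled to a common median instead, the median of all probes was 0.29, 467 probes were higher and 1 lower at the adjusted p, and 5419 were higher and 72 lower at the unadjusted p. With 1 probe per gene, the brightest, 44 genes rose (0.345%) and 1 fell (0.00784%), and 609 (4.78%) and 569 (4.46%) passed the unadjusted threshold. By size, 102 probes were at least 2-fold higher in PV and 7 at least 2-fold lower, and 61 and 1 of these passed the adjusted threshold. The central bulk of probes differed little, with 1% of differences below -0.54 and 1% above 0.74. The split of calls moved with the treatment of background: the authors' value table gave 101 higher and 28 lower, no background correction 102 and 29, and an offset of 50 instead of 16 gave 89 and 19. Leaving out a single array gave 21 higher probes without PV 1, 29 without PV 2, 73 without PV 3, 21 without NPV 1, 43 without NPV 2 and 33 without NPV 3. The lower calls then numbered 0 without PV 1, 1 without PV 2, 3 without PV 3, 0 without NPV 1, 4 without NPV 2 and 1 without NPV 3. Without the replicate block 2 probes rose, those of Sp5 and Rdh9, and 0 fell by limma.

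**Figure D1:**
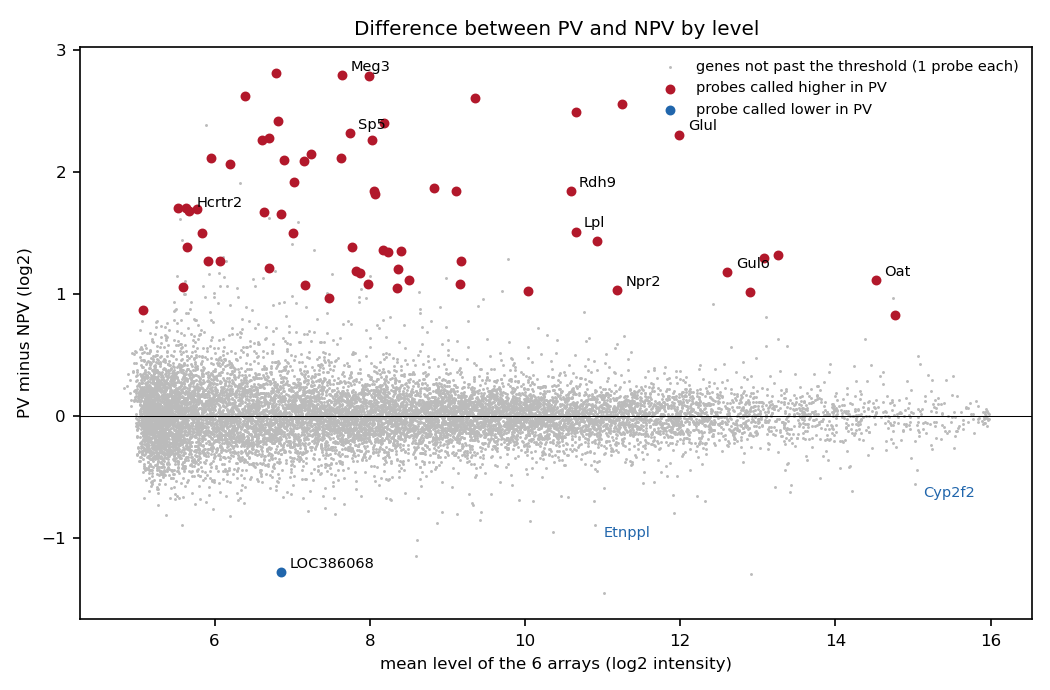
The log2 difference PV minus NPV is plotted against the mean log2 intensity over the 6 arrays, with a grey point for each gene that did not pass the threshold (its brightest probe), a red point for each of the 64 called higher probes and a blue one for the single called lower probe. The called higher probes lie apart from the grey band, Meg3 at 2.80, and the lower one is at -1.28.

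The called genes were found at all intensities. When the 12747 genes were split by level into 3 classes of 4249, 9 of the dim, 25 of the middle and 10 of the bright class rose. The median size of a difference, in either direction, was 0.17 in the dim, 0.12 in the middle and 0.09 in the bright class. Probes detected on all PV arrays and on no NPV array numbered 72, and the reverse pattern held for 24. Such probes passed the filter through 1 group alone, so no test is read from either number or from such a probe. The 64 higher probes include 4 of the 72. A probe each of Hcrtr2, Rcan2 and Rdh10 was among the 72. Among the 64 higher probes, 45 were detected on all NPV arrays, so for most of them the comparison was between measured levels. Another 15 were detected on 1 or 2 NPV arrays and passed the filter only through the PV arrays. Their adjusted p-values are given as values, and their calls are not read as tests.

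The numbered pairs were compared as separate readings. Across probes, the differences of pairs 1 and 2 correlated at r = 0.30, of pairs 1 and 3 at 0.19 and of pairs 2 and 3 at 0.22. These are descriptions over all probes, most of which differed little. Probes at least 2-fold higher in PV in 2 pairs were then looked up in the pair that took no part in the choice. They were also higher there in 40 of 40 cases for pair 1, 57 of 58 for pair 2 and 70 of 92 (76.1%) for pair 3, where 47.4%, 47.7% and 49.8% of all probes were higher. The 40 probes that were at least 2-fold higher in every pair are the same in the 3 choices. On the lower side the choices found 2, 6 and 2 probes, of which 2, 5 and 1 were lower in the pair left out. The same 1 probe is in all 3 of these choices. Every one of the 65 called probes went the same way in its 3 pairs, which selection by this fit favours. In 51 of them the PV and NPV values did not overlap, while over all probes every PV array lay above every NPV array in 2.64% and below in 3.13%.

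**Figure D2:**
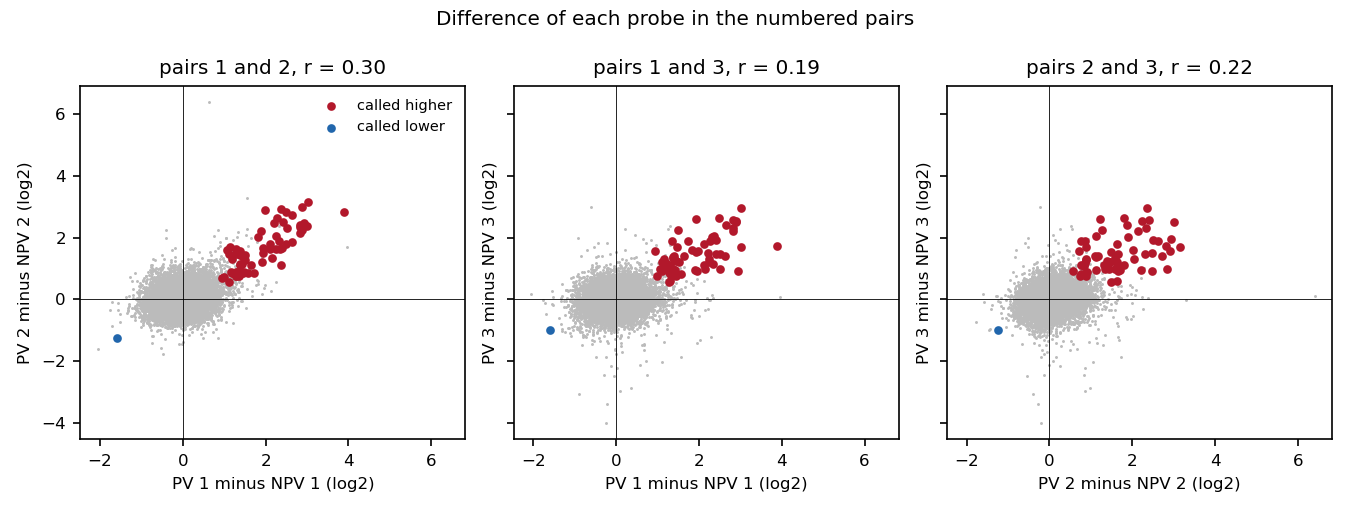
Log2 differences PV minus NPV of one numbered pair are plotted against those of another, with a point for each probe, called higher probes in red and the called lower probe in blue. All 64 higher probes lie above 0 on both axes of each panel, and the other probes are centred near 0.

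The labels were checked on the genes that define the regions. Glul encodes glutamine synthetase, and its levels were 13.73, 12.81 and 12.88 on the PV arrays, against 11.09, 10.94 and 10.48 on the NPV arrays. Every PV array was above every NPV array, and the difference was 2.31 (SE 0.19; limma adjusted p = 0.00174; 4.94-fold). Rhbg, an ammonium transporter of the same cells, had levels of 10.01, 8.98 and 9.14 in PV, against 7.01, 6.61 and 6.16 in NPV. Its groups did not overlap either, and it was 6.88-fold higher (difference 2.78, SE 0.17; limma adjusted p = 0.000244). Sp5, a Wnt-induced zinc finger transcription factor, stood at 8.96, 8.78 and 8.98 in PV, against 6.46, 6.97 and 6.33 in NPV, a 4.99-fold difference without overlap (2.32, SE 0.20; limma adjusted p = 0.00176). Cyp2f2, a cytochrome P450 of periportal hepatocytes, had levels of 14.66, 14.92 and 14.64 in PV, against 15.30, 15.19 and 15.42 in NPV. It was lower on every PV array, by 0.56 (SE 0.14), and did not pass the threshold (limma adjusted p = 0.218). With the authors' value table its adjusted p was 0.0440. These 4 genes fit the labels in direction, and they were chosen for that check.

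Several solute carriers were among the named genes. Of the 209 measured genes with the symbol stem Slc, 4 were called higher, where 0.345% of all genes were. At an unadjusted p under 0.05, 15 were higher and 10 lower, 7.18% and 4.78%, beside 4.78% and 4.46% of all genes. Slc1a2 encodes a high-affinity glutamate transporter that supplies glutamine synthetase with substrate. Its brightest probe read 13.01, 12.94 and 11.63 in PV, against 10.13, 10.69 and 9.09 in NPV. The 3 Slc1a2 probes gave differences of 2.49, 2.55 and 2.61 (SE 0.15, 0.15 and 0.12; limma adjusted p = 0.000242, 0.000242 and 0.000162), so separate probes differed by little. Slc13a3, a sodium-coupled carrier of dicarboxylates such as succinate and alpha-ketoglutarate, was at 9.47, 9.04 and 9.64 in PV, against 6.64, 6.89 and 7.42 in NPV. It rose 5.27-fold (limma adjusted p = 0.00245), and its other probe 4.85-fold. Slc22a3, an organic cation transporter, rose 3.77-fold (limma adjusted p = 0.0151), with 8.54, 7.24 and 8.15 in PV, against 6.62, 6.02 and 5.55 in NPV.

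Known targets and feedback genes of Wnt signalling were also among the called genes. Tnfrsf19, a member of the tumour necrosis factor receptor superfamily induced by Wnt signalling, had levels of 8.46, 8.32 and 7.79 in PV, against 6.14, 6.42 and 5.75 in NPV. The groups did not overlap, and the difference was 2.08 (SE 0.15; limma adjusted p = 0.000652). Tbx3, a T-box transcription factor, read 8.27, 8.88 and 10.08 in PV, against 6.82, 7.50 and 8.85 in NPV. Its groups overlapped because both arrays numbered 3 were high, while every pair differed by 1.23 to 1.45 (limma adjusted p = 0.0102). A dimmer Tbx3 probe differed by 0.70. Lgr5, a receptor for R-spondins, rose 2.41-fold (limma adjusted p = 0.0272) and was detected on 2 of 3 NPV arrays. Axin2, a feedback inhibitor of beta-catenin, rose 2.31-fold (limma adjusted p = 0.0470). Of the 43 genes on a list of Wnt ligands, receptors and regulators, 29 were measured and 3 rose, Sp5, Lgr5 and Axin2. Of all genes 0.345% rose. At an unadjusted p under 0.05, 9 of the list were higher and 0 lower, beside 4.78% and 4.46% of all genes. The median difference over the list was 0.15, beside -8.9e-05 over all genes. Rspo3, the R-spondin made by central vein endothelium, did not pass (difference 1.16, SE 0.21; limma adjusted p = 0.0866).

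The promoters of the higher genes were searched for the core TCF/LEF motif CTTTGAT, the site through which beta-catenin acts, on both strands of the 250 bases before each start site, with matches on the reverse strand reading ATCAAAG. RefSeq promoters of assembly GRCm38.p6 were at hand for 30 of the 47 genes with a higher probe. The motif was in 3 of the 30 (10%), and in 2.79% of 8501 tested genes, 3.09% of 356 genes lower at an unadjusted p under 0.05, and 3.72% of 27025 genes in the table. Each of the 3 other motifs searched was also in a higher share of the 30 than of the tested genes: the TATA box TATAAA in 16.7% and 8.75%, the CCAAT box CCAAT in 50% and 40.5%, and the E-box CACGTG in 13.3% and 9.92%. With 30 genes, nothing particular to the TCF/LEF motif is read from these shares. The 3 windows with a TCF/LEF match are shown because their genes, Sp5, Slc1a2 and Tnfrsf19, are among the largest differences, with the motif in capitals. They lie at chr2:70474673-70474922 (plus strand), chr2:102706188-102706437 (plus strand) and chr14:61037988-61038237 (minus strand, the start site of a second Tnfrsf19 transcript).
Sp5: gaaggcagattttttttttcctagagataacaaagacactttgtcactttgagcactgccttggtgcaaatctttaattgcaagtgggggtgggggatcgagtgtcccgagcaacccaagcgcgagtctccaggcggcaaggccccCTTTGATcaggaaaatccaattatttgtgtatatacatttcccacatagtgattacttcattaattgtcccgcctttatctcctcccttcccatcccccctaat
Slc1a2: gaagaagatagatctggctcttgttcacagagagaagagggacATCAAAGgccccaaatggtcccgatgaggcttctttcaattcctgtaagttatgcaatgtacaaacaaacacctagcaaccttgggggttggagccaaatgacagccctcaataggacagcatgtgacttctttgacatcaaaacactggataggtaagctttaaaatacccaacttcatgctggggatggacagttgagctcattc
Tnfrsf19: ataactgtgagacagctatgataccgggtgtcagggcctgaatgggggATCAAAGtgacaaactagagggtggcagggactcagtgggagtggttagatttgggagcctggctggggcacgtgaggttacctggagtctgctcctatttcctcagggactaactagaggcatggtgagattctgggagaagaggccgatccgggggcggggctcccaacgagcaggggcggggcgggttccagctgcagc
The match began 104 bases before the start site in Sp5, 207 in Slc1a2 and 202 in Tnfrsf19. A match of letters is a description of the window, and 27 of the 30 genes had none.

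Some called genes encode receptors and signalling proteins. Hcrtr2, an orexin receptor, read 6.97, 6.69 and 5.86 in PV, was detected on no NPV array and was at least 2.52-fold higher. Its probe passed the filter through PV alone, so its call is not read as a test. The bound sets the PV mean against the lowest detected signal of each NPV array, or the probe's own signal there where that was higher. Gna14, a G protein alpha subunit of the Gq class that couples receptors to phospholipase C, read 9.73, 9.40 and 10.15 in PV, against 7.48, 7.34 and 8.84 in NPV, and rose 3.65-fold without overlap (limma adjusted p = 0.00869). Avpr1a, a vasopressin receptor that signals through Gq proteins, rose 2.03-fold (limma adjusted p = 0.0343; second probe 1.96-fold). Npr2, the receptor for C-type natriuretic peptide, rose 2.04-fold (limma adjusted p = 0.0151). Rcan2, an inhibitor of the calcium-dependent phosphatase calcineurin, had levels of 8.91, 8.13 and 7.04 in PV, against 6.54, 5.21 and 5.08 in NPV. It rose 5.35-fold (limma adjusted p = 0.00292), 1 of 3 NPV arrays detected it, and by the same bound it was at least 5.24-fold higher. This call too is not read as a test. On the list of calcineurin and calcium handling genes Rcan2 was the 1 of 27 measured members that rose, beside 0.345% of all genes. At an unadjusted p under 0.05, 1 member was higher and 1 lower, beside 4.78% and 4.46% of all genes. Cib2, a calcium-binding protein, rose 3.60-fold (limma adjusted p = 0.00869; second probe 2.82-fold).

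Other called genes encode enzymes. Rdh9, a retinol dehydrogenase, had 11.59, 11.55 and 11.38 in PV, against 9.48, 9.93 and 9.59 in NPV. The arrays of each group were close together, and the difference was 1.84 (SE 0.13; limma adjusted p = 0.000664). Rdh10, another retinol dehydrogenase, was detected on no NPV array and was at least 1.27-fold higher. Its probe also passed the filter through PV alone, and no test is read from it. The glutathione S-transferases Gstm2 and Gstm3 are neighbours on chromosome 3, the single pair of higher genes that are adjacent in the RefSeq gene table. Gstm2 rose by 1.30, 1.32 and 1.43 from its 3 probes (limma adjusted p = 0.00772, 0.00772 and 0.00326) and Gstm3 by 1.36 (limma adjusted p = 0.0272). Probes of such similar genes may share signal. Oat, ornithine aminotransferase, read 15.27, 14.79 and 15.17 in PV, against 14.10, 13.92 and 13.86 in NPV, a 2.17-fold difference without overlap (limma adjusted p = 0.00809). Gulo, which makes the last step of ascorbate synthesis, rose 2.26-fold (limma adjusted p = 0.00728), Lhpp, a histidine phosphatase, by 1.38 and 1.27 on the log2 scale from its probes, and Nt5e, which makes adenosine from AMP, 2.53-fold.

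Vldlr, the very low density lipoprotein receptor, and Lpl, lipoprotein lipase, act in the same step of triglyceride uptake. Vldlr read 8.60, 8.68 and 10.19 in PV, against 5.96, 5.95 and 8.77 in NPV. Its groups overlapped through the high value of NPV 3, and each pair differed in the same direction, by 2.64, 2.73 and 1.42 (limma adjusted p = 0.00499). All 3 Vldlr probes were called, with differences of 2.10 to 2.26. Lpl was higher in PV by 1.95, 1.66 and 0.92 in the 3 pairs, without overlap of the groups, and rose 2.85-fold (limma adjusted p = 0.0127). On the list of lipoprotein uptake and lipolysis these were the 2 of 26 measured genes that rose, beside 0.345% of all genes. No other member passed an unadjusted p under 0.05 in either direction, and the list's median difference was 0.03.

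Serpina7, which encodes thyroxine-binding globulin, read 9.39, 9.44 and 8.10 in PV, against 7.56, 7.42 and 6.50 in NPV, and rose 3.53-fold without overlap (limma adjusted p = 0.00152; second probe 4.19-fold). Meg3, an imprinted long noncoding RNA, read 8.83, 8.37 and 9.93 in PV, against 5.94, 5.37 and 7.42 in NPV. The groups did not overlap, and it rose 6.94-fold (limma adjusted p = 0.000184), while a second, dim Meg3 probe differed by 0.22. Tuba8, a tubulin, rose 4.31-fold (limma adjusted p = 0.0376), was detected on 1 of 3 NPV arrays, and was at least 3.42-fold higher by the same bound. As with Rcan2, its call is not read as a test. Its pairs differed by 2.93, 2.48 and 0.92, so pair 3 was the smallest, and its second probe differed by 1.12.

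Genes of vessel wall cells were called beside the hepatocyte genes. Vwf, von Willebrand factor of endothelial cells, read 9.92, 9.02 and 7.12 in PV, against 7.42, 6.18 and 6.12 in NPV. The groups overlapped, the pairs differed by 2.50, 2.84 and 1.00, and it rose 4.33-fold (limma adjusted p = 0.0449). Edn1, the vasoconstrictor endothelin of endothelial cells, rose 3.23-fold (limma adjusted p = 0.0408), with 6.84, 6.66 and 6.38 in PV, against 4.94, 4.44 and 5.42 in NPV. Cdh13, a cadherin, rose 2.82-fold (limma adjusted p = 0.0210) and Lhx6, a LIM homeobox factor, 2.62-fold (limma adjusted p = 0.0151). Edn1, Cdh13 and Lhx6 were each detected on 1 of 3 NPV arrays, so their folds rest partly on signals below detection. They passed the filter only through the PV arrays, so their calls are not read as tests. With the rule given for Hcrtr2 applied to each NPV array, Edn1 was at least 2.55-fold, Cdh13 at least 2.62-fold and Lhx6 at least 2.04-fold higher. Vegfd, a growth factor for lymphatic vessels, rose 2.41-fold (limma adjusted p = 0.0261). It was detected on 2 of 3 NPV arrays and by the same rule was at least 2.05-fold higher. Which cells expressed Vegfd was not tested. Tnxb, tenascin X of connective tissue, rose by 1.11 and 1.17 from 2 of its 4 probes (limma adjusted p = 0.0444 and 0.0449), and the other 2 differed by 0.02 and 0.87.

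**Figure D3:**
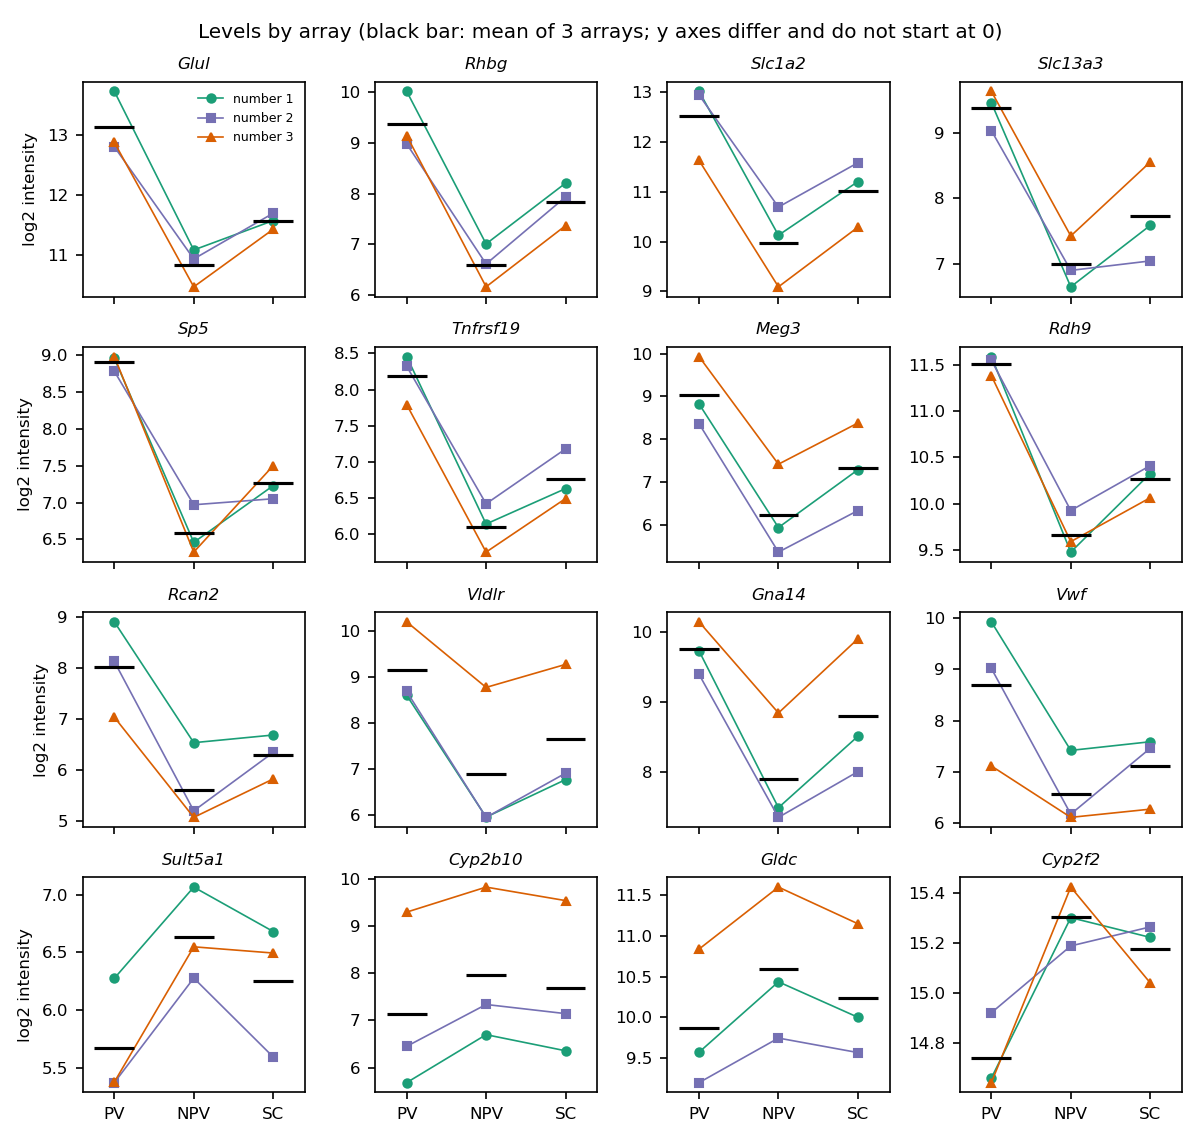
Log2 intensity on each array is shown for 16 genes, with PV at the left, NPV in the middle and SC at the right, a point for each array, lines joining arrays of the same number and black bars for the means of 3 arrays. The vertical axes differ and do not start at 0. The first 12 genes were called higher in PV, and Sult5a1, Cyp2b10, Gldc and Cyp2f2 were lower in every pair without passing the threshold.

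How far single arrays carried these calls differed between genes. Meg3, Rhbg, Slc1a2, Rcan2, Slc13a3, Sp5, Glul, Tnfrsf19, Rdh9 and Serpina7 kept a limma adjusted p under 0.05 whichever 1 of the 6 arrays was left out, with 0.0386 the highest, for the brighter probe of Rcan2. The dimmer Rcan2 probe, which no NPV array detected, lost the call in 3 of these fits, and neither Rcan2 call is read as a test. Endod1, a predicted endonuclease that rose 2.31-fold, kept the call in all 6 fits (highest 0.0438), as did 1 probe each of Vldlr and Gstm2. Of the 55 higher probes of genes named here, 17 passed without any single array. In none of these 6 fits did 7 pass, including Axin2 (0.275 at most). Vwf reached 0.316, Tuba8 0.236 and Edn1 0.300. The remaining higher genes named above lost the call in at least 1 of these fits, and none of the 55 probes changed direction. The 55 include probes that no NPV array detected, among them those of Hcrtr2 and Rdh10, so these counts are descriptions.

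Several genes had more than 1 probe, which read separate stretches of the transcripts. Of the 48 genes with a called probe, 19 had more than 1 probe past the detection filter. In 13 of the 19 every probe was called, among them Rcan2, whose dimmer probe no NPV array detected. In 18 of the 19 all probes differed in the same direction. The exception was Creb3, whose called probe differed by 1.05 (limma adjusted p = 0.0246) and whose brighter probe differed by -0.08. Just inside the threshold lay the second Nt5e probe (difference 1.07), and just outside it a dimmer probe of Cyp2c37 (difference 1.06; limma adjusted p = 0.0524) and Pmm1, a phosphomannomutase (difference 1.10; 0.0546). The brightest Cyp2c37 probe differed by 0.42.

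The lower side was made of many small differences. The single call was LOC386068, which the naming rule skips and which was picked once its values were known. It read 5.91, 5.66 and 7.07 in PV, against 7.51, 6.90 and 8.08 in NPV, a difference of -1.28 (SE 0.14; limma adjusted p = 0.00728). Its call was lost without PV 1 (0.0707), PV 2 (0.0623) or NPV 1 (0.0647). The lower genes nearest to the threshold by limma did not pass it and are given as values. Gldc, the glycine decarboxylase, had 9.57, 9.19 and 10.84 in PV, against 10.44, 9.74 and 11.60 in NPV. Each pair was lower in PV, by 0.55 to 0.87, and the adjusted p was 0.0546. Nrg4, neuregulin 4, differed by -0.82 (0.0574) and Cyp2b10, a cytochrome P450 induced through the constitutive androstane receptor, by -0.81 (0.0575). Cldn14, a tight junction claudin, differed by -0.62, the sulphotransferase Sult5a1 by -0.96, the transcription factor Bhlha15 by -0.63, the mitochondrial adenylate kinase Ak4 by -0.88 and Hsd17b6, a steroid dehydrogenase, by -0.70, with limma adjusted p from 0.0839 to 0.110. Inpp5b, Ero1b, Zap70 and Emd completed the 12 genes, with differences of -0.65 to -0.72. The authors' value table called 28 lower probes of 25 genes, no background correction 29, and 28 of these were shared. With an offset of 50 also required, 18 probes were lower in all 3, among them those of Gldc, Nrg4, Cyp2b10, Ak4, Etnppl, Hsd17b6, Pck1 and Krt23. Etnppl breaks down phosphoethanolamine, and Pck1 is the key enzyme of gluconeogenesis.

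The zonation lists had a median difference of larger size on the pericentral side than on the periportal side. Their members were known zonation genes, listed with earlier results of these data known, so they are descriptions. Of all genes 0.345% rose, and 4.78% were higher and 4.46% lower at an unadjusted p under 0.05. Of 34 pericentral genes 30 were measured and 17 rose. At an unadjusted p under 0.05, 24 were higher and 0 lower, and the median difference was 1.19, with 1.27, 0.95 and 1.10 in the 3 pairs. Of 30 periportal genes 29 were measured, 0 were called by limma and 19 were lower at an unadjusted p under 0.05. All 29 periportal differences were below 0, with a median of -0.43 and pair medians of -0.58, -0.22 and -0.45, and the largest was that of Etnppl, -0.90. When arrays were scaled to a common median, in place of quantile normalization, the median of all probes was 0.29 and the periportal median -0.18. All differences under that scaling are read against 0.29.

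**Figure D4:**
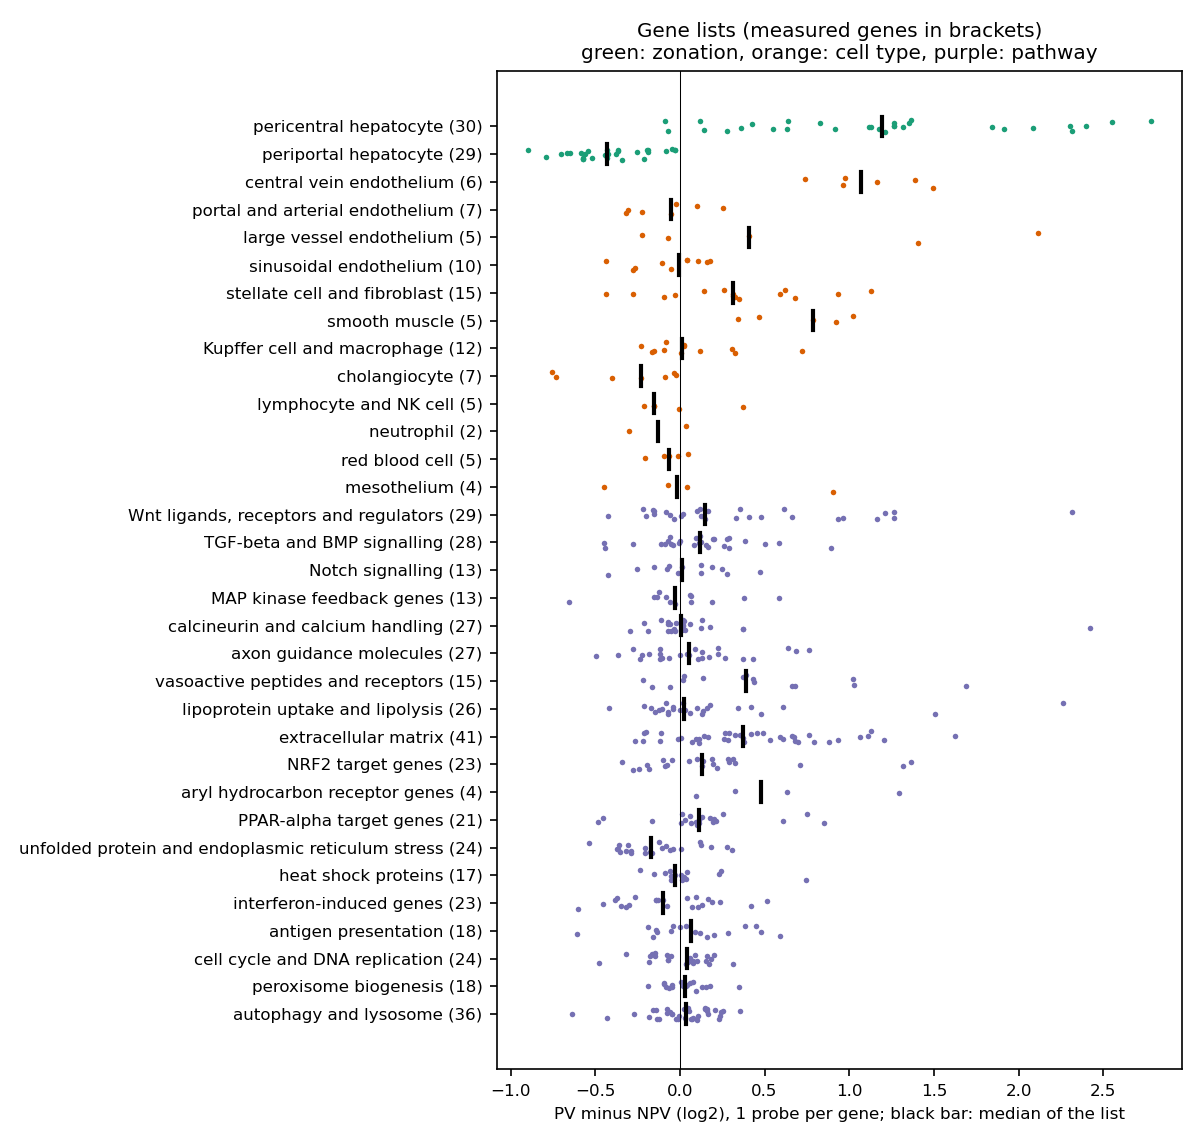
Log2 differences PV minus NPV of the measured genes are shown for each gene list, with a point for each gene and a black bar at the list's median. Pericentral genes reach from -0.09 to 2.78 and periportal genes from -0.90 to -0.03.

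Markers of other cell types moved with the PV samples to different degrees. These lists too were chosen with earlier results of these data known, so their counts are descriptions and not tests. Of all genes 0.345% rose, and 4.78% were higher and 4.46% lower at an unadjusted p under 0.05. Of 7 markers of central vein endothelium 6 were measured, and all 6 were higher at an unadjusted p under 0.05, with Cdh13 and Lhx6 called and a median difference of 1.07. The mean level of this list per array was 6.29 to 8.02 in PV, against 5.35 to 6.57 in NPV and 6.21 to 7.07 in SC, and 3 of the 6 markers were detected on all NPV arrays. The calls of Cdh13 and Lhx6, each detected on 1 NPV array, are not read as tests. On the large vessel list Vwf was the 1 of 5 measured genes that rose, and Selp, P-selectin, differed by 1.41 (SE 0.29; limma adjusted p = 0.140). At the unadjusted p 2 of the 5 were higher and 0 lower. The list's median was 0.41, and 2 of its differences were below 0, the lowest at -0.22. Sinusoidal endothelium, 10 genes measured, had a median of -0.01, with 0 called by limma and 0 higher and 1 lower at an unadjusted p under 0.05. Portal and arterial endothelium, 7 genes, had a median of -0.05 and 0 called, with 0 higher and 1 lower at the unadjusted p.

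Connective tissue and muscle markers varied by pair. The stellate and fibroblast list, 15 genes, had pair medians of 0.61, 0.42 and -0.05. Its mean level per array was 8.29 to 9.24 in PV, against 8.35 to 8.76 in NPV. The smooth muscle list, 5 genes, had pair medians of 1.47, 0.55 and -0.10, with mean levels of 6.51 to 10.39 in PV, against 6.45 to 8.84 in NPV. Extracellular matrix genes, 41 measured, had 0.61, 0.59 and -0.10, with mean levels of 7.19 to 8.50 in PV, against 7.27 to 7.86 in NPV. Neither of the first 2 lists had a call by limma. At an unadjusted p under 0.05 the stellate list had 4 higher and 1 lower, and the smooth muscle list 1 higher and 0 lower. In the matrix list Tnxb rose, 12 genes were higher and 0 lower at the unadjusted p, and Dpt, dermatopontin, differed by 1.62 (limma adjusted p = 0.110), Fbln1, fibulin 1, by 1.21 (0.140) and the collagen Col3a1 by 1.13 (0.245). Acta2, smooth muscle actin, read 13.39, 9.26 and 7.98 in PV, against 11.59, 7.42 and 8.55 in NPV, so it varied more between numbers than between regions. Kupffer cell and macrophage genes had pair medians of -0.28, -0.29 and 0.56 over 12 genes and 0 called by limma, and 0 higher and 0 lower at the unadjusted p. Marco, a macrophage scavenger receptor, read 5.92, 5.61 and 8.24 in PV, against 6.51, 5.83 and 5.26 in NPV, high on PV 3 alone. Cholangiocyte genes, 7 measured, were all below 0 (median -0.23), with 0 called by limma and 3 lower at the unadjusted p. Mesothelium, 4 genes, had pair medians of 0.89, 0.95 and -1.73. Lists of lymphocytes, neutrophils, red blood cells and mesothelium had 0 genes past the unadjusted threshold and 0 called by limma. The part of these cells in the called genes of hepatocytes was not tested.

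**Figure D5:**
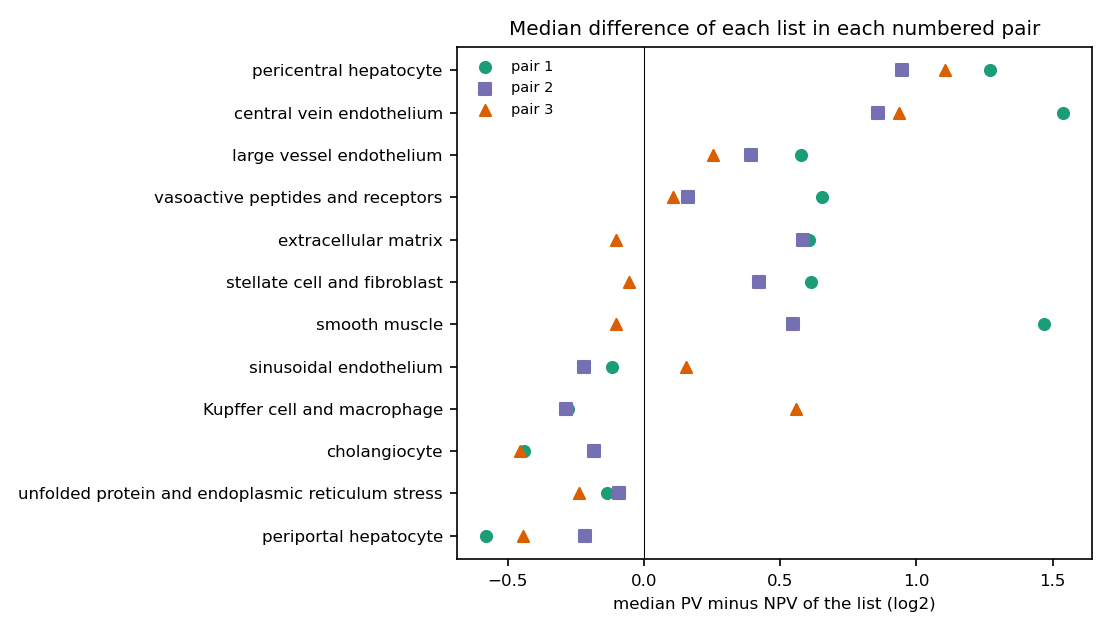
The median log2 difference PV minus NPV is shown for 12 of the lists in each numbered pair, with a point per pair. The pericentral list stays between 0.95 and 1.27, while the smooth muscle and extracellular matrix lists are above 0 in pairs 1 and 2 and at -0.10 in pair 3.

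The pathway lists were also chosen with earlier results of these data known. Of all genes 0.345% rose, and 4.78% were higher and 4.46% lower at an unadjusted p under 0.05. The vasoactive peptides and their receptors held 3 calls among 15 measured genes, Edn1, Npr2 and Avpr1a. At the unadjusted p 7 of them were higher and 0 lower, and the median was 0.39. Of 23 measured NRF2 target genes, which defend against oxidants, Gstm2 and Gstm3 rose, 6 were higher and 1 lower at the unadjusted p, and the median was 0.13. The genes of the aryl hydrocarbon receptor had 4 measured members and 0 called by limma, with 3 higher at the unadjusted p, among them Cyp1a2 (difference 0.63; limma adjusted p = 0.205) and Cyp1b1 (1.29; 0.249). The axon guidance list, 27 genes, had 0 called by limma and 4 higher and 1 lower at the unadjusted p, with Robo1 at 0.64, Sema3f at 0.68 and Nrp2 at 0.76. TGF-beta and BMP signalling, 28 genes, had 0 called and 5 higher and 2 lower, led by the co-receptor Tgfbr3 at 0.89 (limma adjusted p = 0.104). The PPAR-alpha target list, 21 genes, had 0 called and 2 higher and 1 lower, with the thioesterase Acot1 at 0.85 (limma adjusted p = 0.0758).

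The unfolded protein and endoplasmic reticulum stress list leaned to the lower side: of 24 genes 0 were called by limma, 1 was higher and 5 lower at an unadjusted p under 0.05, and the median was -0.17. Hspa5, the chaperone BiP, read 10.86, 11.10 and 10.16 in PV, against 11.51, 11.36 and 10.36 in NPV (limma adjusted p = 0.393). The list's median was 0.18 under common median scaling, where that of all probes was 0.29. The following lists had 0 calls by limma, and of all genes 4.78% were higher and 4.46% lower at the unadjusted p. Notch signalling had 0 of 13 genes past the unadjusted threshold, MAP kinase feedback 2 higher of 13, and heat shock proteins 1 higher of 17, Hspb1 (difference 0.74). Interferon-induced genes had 2 higher and 3 lower of 23, antigen presentation 3 higher and 1 lower of 18, and cell cycle and DNA replication 1 lower of 24. Peroxisome biogenesis had 1 higher of 18, and autophagy and lysosome 2 lower of 36, with Galc, a lysosomal galactosylceramidase, at -0.64. Under common median scaling the medians of sinusoidal (0.33), portal and arterial endothelium (0.05), neutrophils (0.09), red blood cells (0.17), MAP kinase feedback (0.29), heat shock (0.27) and interferon-induced genes (0.23) were above 0, with 0.29 for all probes. The Kupffer median was -0.01 with the authors' value table.

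Genes were also grouped by symbol stem, without a list of functions, for the 130 stems with at least 10 measured genes. The highest shares of genes higher at an unadjusted p under 0.05 were those of Mmp, the matrix metalloproteinases, with 4 of 10, Col, the collagens, with 6 of 22, and Cyp, the cytochromes P450, with 13 of 55. Of the Cyp genes 7 were lower, and 1 was called, Cyp2c55 (2.12-fold higher; limma adjusted p = 0.0172). The lower side was led by Kif, the kinesins, with 3 of 13, Rgs, regulators of G protein signalling, with 2 of 10, and Irf and Sox, interferon regulatory and SRY-box factors, with 2 of 11 each. Over all genes 4.78% were higher and 4.46% lower, and the stems named here are the extremes of 130, most with counts of 2 to 4 genes. No gene was higher in 72 of the 130 stems, and none was lower in 58.

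The higher probes were also measured in whole scraped tissue (SC), which holds both regions. The SC mean was between the PV and NPV means for 61 of the 64 higher probes, below the NPV mean for 3 and above the PV mean for 0. Over all 18200 probes, called or not, it lay between them for 37.7%. The 64 probes were chosen for PV above NPV, so these numbers are a description. Glul read 11.58, 11.70 and 11.44 in SC, Slc1a2 11.20, 11.58 and 10.29, and Rdh9 10.33, 10.41 and 10.07.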

How the data were processed

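RNA of 9 mouse liver samples, 3 each of PV, NPV and SC, was hybridised to Illumina bead arrays, with 1 dye. The deposited scanner table gives, per the file headers, the intensity of each of 45281 probes with its detection p-value. The submitters' processing notes name BeadStudio 3. The intensities were not normalized between arrays (medians 71.7 to 100.2 on the 6 arrays compared). A second table of the authors holds processed intensity values of unstated making, which served as an alternative.

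Background was corrected with limma 3.58.1 (R 4.3.3; neqc, offset 16, negative controls inferred from detection p-values), followed by quantile normalization and log2. The fit used all 9 arrays with group and label number as terms, 4 residual degrees of freedom, moderated 2-sided tests of PV against NPV and Benjamini-Hochberg adjustment over 18200 probes. All SE values and adjusted p-values are from limma. A gene was represented by its brightest probe over the 6 arrays. Names came through RefSeq (GRCm38.p6): 29370 probes matched by accession, 3678 by symbol and 3273 by synonym, and 8960 kept the file's name.

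The pairing by number was checked on deviations from the group means. PV and NPV arrays with the same number correlated at 0.65, 0.74 and 0.87 for numbers 1, 2 and 3. The highest correlation of each PV array with an NPV array of another number was 0.35, 0.35 and -0.64. What a number stands for is not given.

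Named genes were the 25 largest called differences in each direction, filled to 12 lower genes by p, up to 3 of each of 33 lists by p, and Glul, Rhbg, Sp5 and Cyp2f2. RIKEN, LOC and clone names were skipped, and some genes that this rule takes are not reported here. Other genes are named after their values were seen: Endod1, Lhpp, Gulo, Oat, Cyp2c55, Vegfd, Rdh10, Creb3, Cyp2c37, Pmm1 and those of the closing observations. The members and lists were chosen with earlier results of these data known. Alternatives were the block, normalization, background, filter, probe choice, array weights and left-out arrays.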

Additional observations from a re-analysis of the deposited data

How the results depend on the processing

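The counts of 64 higher and 1 lower probe depended on the processing, and the causes were not tested beyond the construction of each alternative. Without the replicate block, which drops the pairing by number, there were 2 higher and 0 lower. The 6 PV and NPV arrays alone, with the block, gave 30 and 0. Scaling to a common median, which moves the median of all probes to 0.29, gave 467 higher. The authors' value table gave 101 and 28, no background correction 102 and 29, and an offset of 50 gave 19 lower. No filter gave 30 higher, 1 probe per gene, with fewer features tested, 42 higher, detection on all 6 arrays at p under 0.01 gave 6 lower, and array weights 7 lower. Leaving out 1 array or 1 number gave 12 to 73 higher and 0 to 4 lower. Of the probes chosen as lower in 2 pairs, pooled over the choices of 2, 6 and 2 probes, 80% were lower in the third. LOC386068, at least 2-fold lower in every pair, counts in all 3 choices. With median scaling 1 probe was chosen and 0% were lower. Marco, a macrophage receptor, differed by 0.72 and by -0.41 to 1.38 when arrays were left out, below 0 without PV 3, NPV 3 or number 3. The other genes recomputed kept their direction under every alternative run.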

Other observations

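Some genes differed most in pair 3, and they were chosen after their values were seen. In pair 3 Gadd45g, a growth arrest gene induced by stress, read 13.24, 13.55 and 9.99 in PV, against 13.45, 13.83 and 13.40 in NPV, and its second probe differed by -4.01 in pair 3. Cish, an inhibitor of cytokine signalling induced through STAT5, differed by -2.45 in pair 3 and by -0.29 and -0.14 in pairs 1 and 2. Foxq1, a forkhead factor, differed by -0.90, -0.41 and -3.06 in the 3 pairs. Cyp7a1, the rate-limiting enzyme of bile acid synthesis, read 11.69, 12.59 and 14.38 in PV, against 11.47, 12.35 and 12.09 in NPV, so PV 3 was the high array. None of these passed the limma threshold (adjusted p 0.565, 0.515, 0.336 and 0.475).

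Some probes of skeletal muscle genes stood high on 1 or 2 PV arrays. Myl1, a myosin light chain, read 5.84, 10.81 and 4.59 in PV, against 5.22, 4.41 and 4.47 in NPV, so PV 2 alone was far above the rest. Mylpf, another myosin light chain, read 5.98, 8.52 and 6.46 in PV, against 6.37, 6.28 and 6.39 in NPV. Tcap, telethonin, differed by 1.55, 3.30 and -0.01 in the 3 pairs from its brighter probe, and by 0.09, 0.13 and -0.66 from the other. Cfd, adipsin, a gene of fat cells, was highest on PV 1, with 10.47, 6.73 and 4.63 in PV, against 6.51, 5.05 and 4.56 in NPV. These 4 genes also did not pass (limma adjusted p 0.548, 0.690, 0.375 and 0.315).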
